A study of Mus musculus with 2 samples.

Results

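The Mir29 family comprises Mir29a and Mir29b-1, which lie together on chromosome 6, and Mir29b-2 and Mir29c, which lie together on chromosome 1. These 4 genes were taken by their GENCODE M21 symbols from the 1973 microRNA genes for which counts were deposited, and all 4 had counts. The libraries were made by microRNA-seq, which sequences adapter-ligated small RNA, from total RNA with a labelled size range below 30 nt. They came from mice of strain B6NCrl at postnatal day 0, and each library was made from the single hindbrain of 1 pup, named pup 1 and pup 3 in the labels. No treatment, transgene or mutant allele is given in the labels, and sex was not recorded. The 2 libraries form 1 group, so no condition was compared. The labels give both pups the same donor identifier, and the p-values below compare these 2 libraries only.

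A microRNA is cut from a hairpin precursor whose 5′ and 3′ arms can each yield a mature strand, and the mature strand guides Argonaute to messenger RNAs that pair with its seed, bases 2 to 8. The 3p strands are the main products of the Mir29 hairpins and are known to repress collagens and other extracellular matrix genes, DNA methyltransferases and, in maturing neurons, BH3-only genes that promote cell death. In the rodent brain the family is known to be low before birth and to rise as neurons and astrocytes mature after it.

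The mature sequences are shown first because they bear on which reads of the family match a single gene. All 4 genes matched the RefSeq microRNA table (GRCm38.p6), which lists 8 mature arms with 7 distinct sequences. In the lines below bases run 5′ to 3′ and capitals mark the seed. The 3p arms come first.
miR-29a-3p, from Mir29a: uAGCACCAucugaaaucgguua
miR-29b-3p, from both Mir29b-1 and Mir29b-2: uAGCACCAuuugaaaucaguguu
miR-29c-3p, from Mir29c: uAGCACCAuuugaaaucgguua
miR-29a-5p: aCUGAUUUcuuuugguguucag
miR-29b-1-5p: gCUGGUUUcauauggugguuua
miR-29b-2-5p: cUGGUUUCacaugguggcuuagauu
miR-29c-5p: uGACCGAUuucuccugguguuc

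The 3p arms shared 1 seed, AGCACCA, and no other mature microRNA in the RefSeq table had it. Counted from base 1 at the 5′ end, miR-29a-3p and miR-29c-3p differed by 1 substitution over 22 bases, C10U, outside the seed. miR-29b-3p and miR-29c-3p were identical over their first 17 bases and then differed by A18G, G21U and U22A. The 5p arms had 4 different seeds, of which that of miR-29b-2-5p, UGGUUUC, also occurs in miR-6338. The 5p arms of Mir29b-1 and Mir29b-2 were not identical, with 2 differences over 21 bases when set off by 1 base.

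Only miR-29b-3p was encoded by 2 hairpins, and its 23 bases were the same in both. A read of the full miR-29b-3p therefore matched Mir29b-1 and Mir29b-2 equally well. The tables give reads mapped to several loci in a row of their own, from which it was inferred that such reads were not assigned to a gene; no source used here describes the counting. Among annotated hairpins on either strand, no prefix of miR-29b-3p was unique to 1 gene. A read that started at base 1 of miR-29c-3p needed 18 bases to be unique to Mir29c. For miR-29a-3p and all 5p arms a prefix of 12 bases, the shortest searched, was already unique. These searches covered annotated hairpins and not the whole genome.

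Both clusters were compact. On chromosome 6 (mm10), Mir29b-1 (31063023 to 31063093) and Mir29a (31062660 to 31062747) lie on the minus strand, 275 nt apart, with Mir29b-1 first in the direction of transcription. On chromosome 1, Mir29b-2 (195037040 to 195037120) and Mir29c (195037547 to 195037634) lie on the plus strand, 426 nt apart, again with the Mir29b gene first. GENCODE M21 places Mir29b-2 and Mir29c inside 1 exon of the noncoding gene A330023F24Rik on the same strand. On the opposite strand both overlap a UTR of Cd46, which encodes a complement regulatory protein. On chromosome 6, Mir29a overlaps no other annotated gene, and Mir29b-1 overlaps the end of an exon of the lincRNA Gm27019 by 2 nt. No member had an opposite-strand count in either pup.

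Depth was 2459757 counts in pup 1 and 3012320 in pup 3, all on the strand of a microRNA gene. A count of 0 allows up to 3 counts, which is 1.22 and 0.996 CPM (counts per 1000000 of these totals). Reads that mapped to several loci made up 40.2% and 42.0% of all reads. Intervals below are exact 95% Clopper-Pearson intervals, and since reads carry no molecular identifiers they cover counting error only. A microRNA read spans a whole mature strand, so levels of different genes were compared without division by length. Of the neural markers, 5 of 9 measured reached 10 CPM in both pups, led by Mir137 at 11588 and 13229 CPM. The others were Mir124a-1 at 4.88 and 5.64 CPM, Mir124a-2 at 1.63 and 2.99, Mir124a-3 at 1.22 and 0.664 and Mir9-2 at 1.22 and 1.66. Counts at all measured genes of the neuronal miR-124 were thus low. By the inferred counting they leave out reads that match several of these genes, so they do not give the level of miR-124 itself. Mir9-2, and Mir9-3 at 524 and 433 CPM, have every listed arm repeated at another gene. The Hox-encoded position markers of the hindbrain were abundant in both pups and lower in pup 3, Mir10a at 35717 and 23544 CPM and Mir10b at 20858 and 10196 CPM. Of 4 striated muscle genes with a row, Mir1a-1, Mir133a-1 and Mir133a-2 were at 0 and Mir206 had 98.4 and 125 CPM. By the inferred counting, reads that match several genes are in none of these marker values. A value of 0 therefore does not show that a mature strand was absent.

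Together the 4 genes held 2200 counts in pup 1, or 0.0894% of the library (interval 0.0857% to 0.0933%), and 3282 counts in pup 3, or 0.109% (interval 0.105% to 0.113%). The mean was 0.0992% ± 0.0138 (SD, n = 2). Summed by number stem, meaning all genes whose symbols share a number, Mir29 ranked 89 of 556 stems with a count. By the inferred counting, full reads of miR-29b-3p are not in these values.

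Mir29a, the source of miR-29a-3p, had the most counts of the family. It had 1254 counts in pup 1, or 509.8 CPM (interval 482 to 539), and 1755 counts in pup 3, or 583 CPM (interval 556 to 611). Its mean was 546 ± 51.5 CPM (SD, n = 2). It ranked 130 of the 699 genes with a count, above 81.4% of them.

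Mir29c, the chromosome 1 gene whose 3p strand differs from that of Mir29a by C10U, followed. It had 918 counts in pup 1, or 373 CPM (interval 349 to 398), and 1496 in pup 3, or 497 CPM (interval 472 to 522). Its mean was 435 ± 87.3 CPM (SD, n = 2) and its rank 148. Within each pup the interval of Mir29c lay below that of Mir29a, but Mir29c in pup 3 and Mir29a in pup 1 had overlapping intervals.

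The Mir29b genes had few counts. Mir29b-1 had 15 counts in pup 1 and 16 in pup 3, which is 6.10 CPM (interval 3.41 to 10.1) and 5.31 CPM (interval 3.04 to 8.63). Mir29b-2 had 13 and 15 counts, which is 5.29 CPM (interval 2.81 to 9.04) and 4.98 CPM (interval 2.79 to 8.21). All 4 values overlapped within counting error, so the order of these neighbours, with ranks 338 and 349, was not resolved. Mir29b-2 lay at the median of the 699 genes with a count, 5.13 CPM. Both Mir29b genes lay above the floor of 3 counts.

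**Figure D1:**
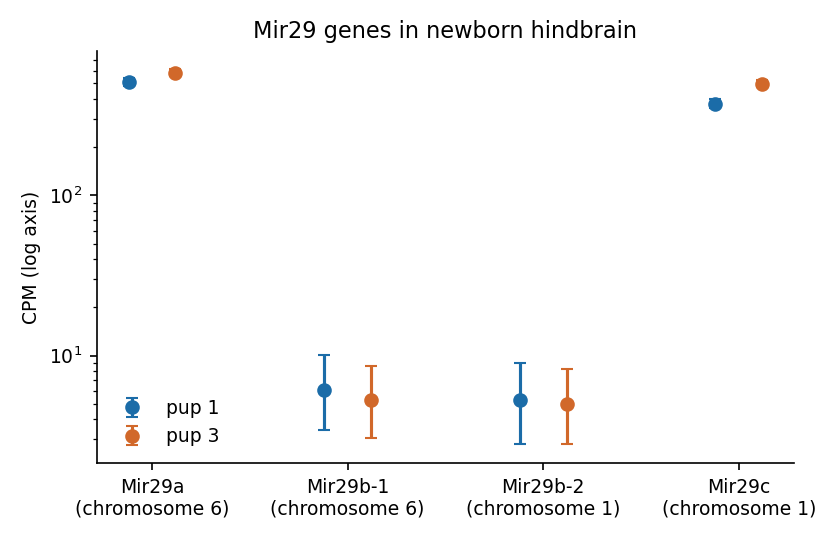
Levels of the 4 Mir29 genes in CPM on a log axis, with 1 point for each pup and bars for the exact 95% interval of counting error. Mir29a and Mir29c lie between 373 and 583 CPM, and Mir29b-1 and Mir29b-2 between 4.98 and 6.10 CPM.

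The chromosome 6 cluster held more counts than the chromosome 1 cluster in both pups. In pup 1 Mir29a and Mir29b-1 together had 1269 counts and Mir29b-2 and Mir29c together had 931, so that chromosome 6 held 57.7% of the family (interval 55.6% to 59.8%). In pup 3 the sums were 1771 and 1511, and chromosome 6 held 53.96% (interval 52.2% to 55.7%). The mean was 55.8% ± 2.63 (SD, n = 2). Both intervals lay above an even split, and they overlapped each other narrowly. They cover counting error only. Whether the different mature strands entered the libraries at equal rates was not tested, so the shares describe counts and not the output of the clusters. With 2 pups, an exact permutation test of the clusters paired within pups cannot give a p below 0.5, so none is given.

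As a ratio, chromosome 6 over chromosome 1 was 1.36 in pup 1 (interval 1.25 to 1.48) and 1.17 in pup 3 (interval 1.09 to 1.26). Nearly all of this came from Mir29a and Mir29c, whose own ratio was 1.37 in pup 1 and 1.17 in pup 3. The Mir29b genes held 1.11% ± 0.232 (SD, n = 2) of the family's counts. Mir29b-1 over Mir29b-2 was 1.15 in pup 1 (interval 0.512 to 2.63) and 1.07 in pup 3 (interval 0.494 to 2.32). A difference between the Mir29b genes was not detectable from these counts. By the inferred counting they leave out full miR-29b-3p reads, which cannot tell the 2 genes apart at any depth.

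**Figure D2:**
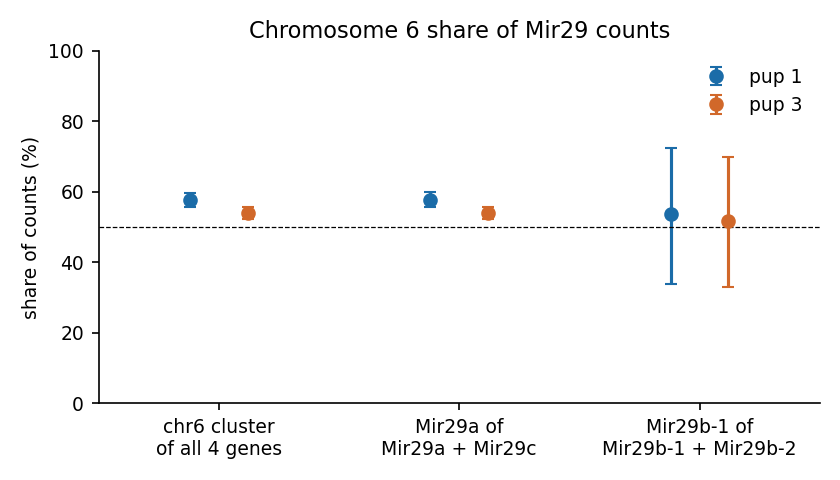
Share of counts from chromosome 6, in percent, for the whole family, for Mir29a against Mir29c and for Mir29b-1 against Mir29b-2. Points are pups, bars are exact 95% intervals of counting error and the dashed line marks an even split. The first 2 shares lie between 53.96% and 57.7%, and the intervals of the Mir29b share span the line.

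In both clusters the Mir29b gene had far fewer counts than its neighbour. Mir29a exceeded its neighbour Mir29b-1 by 83.6 times in pup 1 (interval 50.5 to 149.8) and by 109.7 times in pup 3 (interval 67.4 to 192). Mir29c exceeded Mir29b-2 by 70.6 times (interval 41.1 to 133) and 99.7 times (interval 60.3 to 179). These intervals were wide and overlapped between clusters and between pups, so neither likeness nor a difference of the clusters in this proportion was resolved. If full miR-29b-3p reads were left out, as inferred from the layout of the tables, the ratios describe the counted reads and not the output of the hairpins.

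Neighbouring microRNA genes with unequal counts were common. Over 112 neighbouring pairs within 10000 nt on 1 strand, both members counted and 1 or both at 10 CPM or more, the median difference between neighbours was 3.29 on the log2 CPM scale. The Mir29a and Mir29b-1 pair differed by 6.58 and ranked 21 from the highest, and the Mir29b-2 and Mir29c pair differed by 6.40 and ranked 22.

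The Mir29b genes were then placed among genes with the same arrangement of arms. Of 916 genes matched by symbol to mature sequences of the RefSeq table, 53 had 1 mature arm that is repeated at another gene and 1 that is not. Of these, 31 reached 10 CPM in both pups and 48 had a count, with a median of 87.2 CPM over those 48. By mean CPM, 34 of the 53 lay above Mir29b-1 and 17 below Mir29b-2. In 829 genes with no repeated arm the median over the 547 with a count was 5.37 CPM, and 29.6% of the 829 reached 10 CPM in both pups. In 34 genes whose listed arms were all repeated, only 10 had a count, with a median of 78.1 CPM. Of the 34, 17.6% reached 10 CPM in both pups. Mir9-3 was among them at 478 CPM, so a repeated arm did not by itself mean that a gene had no counts. These medians leave out genes without a count. The arm from which the counted reads came is not recorded in the tables.

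Among those 53 genes, 20 pairs shared an arm between exactly 2 genes. The sum over Mir29b-1 and Mir29b-2 was 10.8 CPM, against a median of 177 CPM over the pairs, and 5 pairs had a lower sum. The summed level was highest for Mir128-1 and Mir128-2, of a brain-enriched microRNA, at 7991 CPM. In mean CPM the Mir29b genes were closer to each other than most pairs. They differed by 0.15 on the log2 CPM scale, against a median of 1.78 over the 19 pairs with counts at both genes, and 2 pairs were closer. This place was not resolved, as the interval of their ratio ran from 0.512 to 2.63 in pup 1 and from 0.494 to 2.32 in pup 3. By the inferred counting, full reads of the shared arm are left out of every pair.

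**Figure D3:**
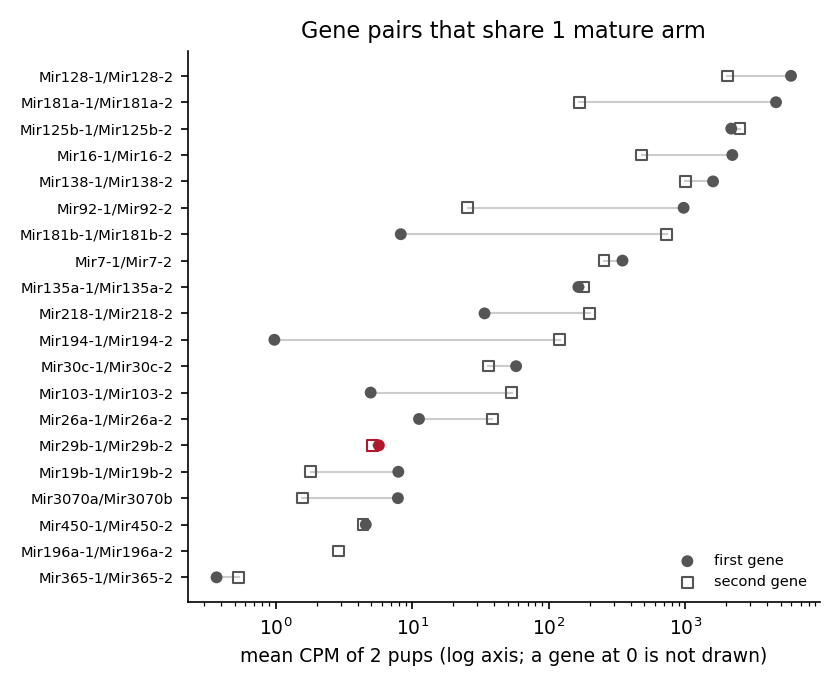
Mean CPM of 2 pups, on a log axis, for the 20 pairs of genes that share 1 mature arm and differ in the other. Filled circles are the first gene of each pair and open squares the second, ordered by the pair's sum; the Mir29b pair, in red, has a sum of 10.8 CPM and only 5 pairs have a lower one.

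Other microRNAs known to rise as the brain matures were mostly more abundant at birth than the Mir29 genes. All 11 genes of this list reached 10 CPM in both pups, with a median of 1599 CPM, against a median of 5.13 CPM over all 699 genes with a count. Mir22 was highest at 9847 and 11673 CPM, and Mir219a-1, of the oligodendrocyte microRNA miR-219a, was lowest by mean CPM at 117 and 116, close to Mir212 at 132 and 103 CPM. Mir29a and Mir29c each lay below 9 of the 11 and above Mir212 and Mir219a-1, and both Mir29b genes lay below all 11.

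Against microRNAs known from early, proliferating brain, the family was also low. Of 11 listed genes, 10 had a row under the listed symbol, and their median was 3809 CPM. The other, Mir92a-1, has its row as Mir92-1, at 987 and 960 CPM. It was not matched and is left out of the median and the counts below, though it too lay above Mir29a and Mir29c. Mir130a was highest at 24026 and 24038 CPM, and Mir19b-1, a neighbour of Mir17, was lowest at 8.54 and 7.30 CPM. Mir29a lay below 7 of the 10, Mir29c below 8 and both Mir29b genes below all 10. Both lists include genes that share arms with other loci, such as Mir19b-1, so their levels carry the same limit.

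**Figure D4:**
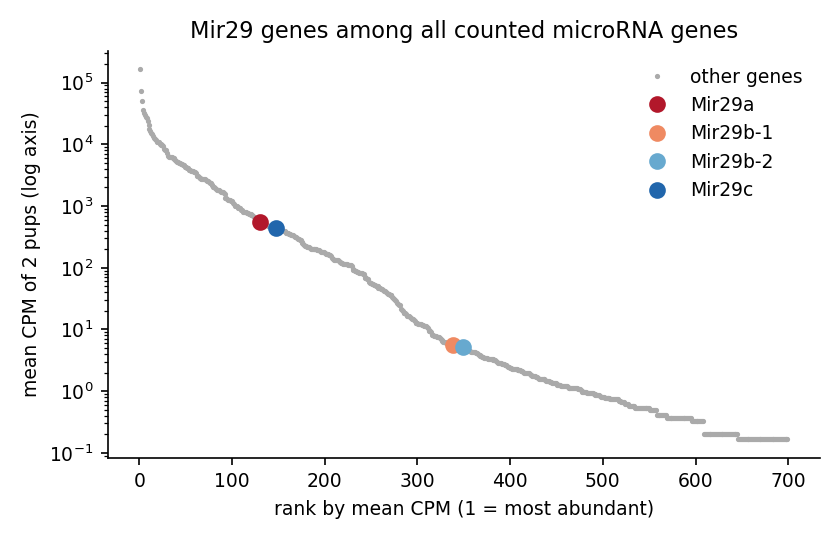
Mean CPM of 2 pups on a log axis against rank, for the 699 genes with a count, with the Mir29 genes in colour. Mir29a and Mir29c sit at ranks 130 and 148, and Mir29b-1 and Mir29b-2 at ranks 338 and 349.

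The genes nearest to each member in level and in their difference between pups were found by the distance of log2(CPM + 1) over the 2 libraries, which can rank likeness only coarsely. Nearest to Mir29a were Mir455 (distance 0.10), Mir700 (0.12) and Mir210 (0.12), the last a hypoxia-induced microRNA. Nearest to Mir29c were Mir28a (0.14), Mir410 of the Dlk1-Dio3 region (0.15) and Mir1251 (0.21). In mean CPM, Mir210 at 549 ± 5.86 and Mir328 at 536 ± 86.4 lay next above and below Mir29a, and Mirlet7c-1 at 441 ± 9.64 and Mir221 at 431 ± 45.2 (SD, n = 2) next above and below Mir29c. None of these 4 differed from its Mir29 neighbour by more than the spread between pups. They were picked for adjacent means, so this closeness follows from the choice.

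Nearest to Mir29b-1 were Mir1927 (0.085), Mir3058 (0.14) and Mir6928 (0.16), and the genes next above and below it in mean CPM were Mir3081 at 5.72 and Mir3060 at 5.68. Nearest to Mir29b-2 were Mir6958, with equal counts in both pups, Mir103-1 (0.082) and Mir378d (0.096). Mir124a-1, 1 of 3 genes for the neuronal miR-124, came next above it in mean CPM at 5.26 ± 0.541 (SD, n = 2), and Mir6958 was level with it.

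The pups were compared by an exact two-sided binomial test of each gene's counts against the TMM-scaled totals (a trimmed mean scaling of library size), with Benjamini-Hochberg adjustment over 395 genes that had 10 or more counts in either library. This compares 2 libraries beyond counting error and no condition. Of all genes tested, 25.6% were higher in pup 3, 21.3% lower and 46.8% either. Of the 4 Mir29 genes, 2 were higher in pup 3 and 2 did not pass the test.

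Both genes that passed were the abundant ones. Mir29c was higher in pup 3 with a log2 fold of 0.36 (interval 0.24 to 0.48, exact binomial adjusted p = 8.7e-09), and Mir29a with a log2 fold of 0.14 (interval 0.03 to 0.25, exact binomial adjusted p = 0.021). Mir29b-1 had a log2 fold of -0.26 (interval -1.36 to 0.87, exact binomial adjusted p = 0.85), and Mir29b-2 of -0.15 (interval -1.31 to 1.05, exact binomial adjusted p = 0.93). The intervals of the Mir29b folds hold both 0 and the folds of Mir29a and Mir29c, so these counts could not resolve a difference of that size. By cluster, the summed log2 fold was 0.14 on chromosome 6 (interval 0.03 to 0.24) and 0.35 on chromosome 1 (interval 0.23 to 0.47). The difference between the clusters was not tested.

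Against the spread between pups these differences were of ordinary size. edgeR's common biological coefficient of variation was 16.5% over 361 genes with 10 or more counts in both libraries, so that log2 folds of a pair of pups would spread with an SD of 0.34. The coefficient was estimated from the same 2 libraries, with the Mir29 genes included, so it is no separate measure of spread between pups. The fold of Mir29c came to 1.07 of these SDs and that of Mir29a to 0.41. In absolute size the fold of Mir29c exceeded that of 67.8% of the 395 tested genes and the fold of Mir29a that of 31.1%. The median log2 fold of all tested genes was 0.02.

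**Figure D5:**
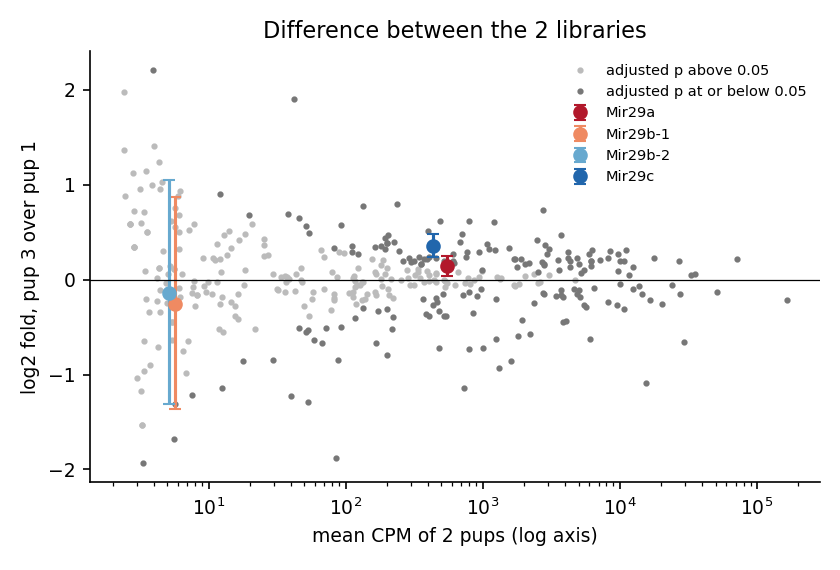
Log2 fold of pup 3 over pup 1 against mean CPM (log axis) for the 395 tested genes, with the Mir29 genes in colour and bars for the exact 95% interval of counting error. Mir29c at 0.36 and Mir29a at 0.14 lie above 0 within the cloud of other genes, and the bars of both Mir29b genes cross 0.

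Markers of position and of the cell types that a hindbrain can hold also differed between the pups. Among these lists, the largest shift in summed CPM was that of the position markers, from 56575 CPM in pup 1 to 33740 CPM in pup 3, with log2 folds of -0.65 for Mir10a and -1.09 for Mir10b, both lower in pup 3 by the same test. Counts of called genes below stand against all 395 tested genes, of which 25.6% were higher in pup 3, 21.3% lower and 46.8% either. With lists this short, an excess over those shares was not tested. The 9 neural genes summed to 21308 and 25971 CPM, with 4 of 6 tested genes higher and 1 lower. The summed level of 3 oligodendrocyte genes was 1626 CPM in pup 1 and 2000.5 in pup 3, with 2 of 3 higher in pup 3 by the same test. That of 7 mesenchymal and mural cell genes was 11937 and 14637 CPM, with 3 of 6 tested genes higher, none lower and Mir199a-1 at 0 and 1 counts. The endothelial Mir126a had 34216 and 36931 CPM, and 3 leukocyte and microglia genes summed to 442 and 480.03 CPM. The red blood cell genes went opposite ways, Mir451a from 134 CPM in pup 1 to 37.5 in pup 3 and Mir144 from 17.1 to 67.1, and both passed the test. Of the striated muscle genes only Mir206 had enough counts to be tested, and it was higher in pup 3 with a log2 fold of 0.29. The part of these markers in the differences of Mir29a and Mir29c was not tested. In whole tissue, fewer cells of a type and less RNA per cell cannot be told apart.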

How the data were processed

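MicroRNA-seq counts of 2 hindbrain libraries (pups 1 and 3, 1 group) were used. The authors deposited raw read counts per microRNA gene, aligned to mm10 with GENCODE M4, per the deposited file listings. For aligner and trimming, nothing was given in the sources used here. The same-strand column was used, and its meaning, like the exclusion of reads mapped to several loci from gene counts, was inferred from the tables' layout and values. Rows naming no gene were left out of totals; unmapped reads were 13.7% and 12.4% of all reads and reads outside genes 3.79% and 3.63%.

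Symbols and coordinates came from GENCODE M21 (1894 of 1973 rows matched), sequences from RefSeq. CPM, exact intervals and the binomial test used scipy 1.17.1, with a prior of 0.5 counts in folds; TMM factors and the coefficient of variation used edgeR 4.0.16 (R 4.3.3). The binomial test was checked on simulated data. A quasi-likelihood test could not be made, as neither pup has a replicate. Alternatives were other scalings (plain totals, DESeq2 1.42.0 size factors), count columns, denominators, filters and priors. Named genes were the members, the 3 nearest genes and the genes adjacent in mean CPM, and the highest and lowest of each maturation list; others were named after their values were seen. The members and lists were chosen with earlier results of these data known.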

Additional observations from a re-analysis of the deposited data

Results flagged for a closer look

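Reads that mapped to several loci made up 41.1% of all reads (mean of 2 pups, SD 1.29), stand in a row that names no gene and were used in no comparison above. They are listed because they exceed what a count of 0 allows. By the inferred counting, full reads of miR-29b-3p, which is identical at Mir29b-1 and Mir29b-2, would be among them; how many there were was not tested.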

How the results depend on the processing

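Of 55 alternative values, 49 kept their direction, call or level and 6 moved, and no fold changed sign or call. Of the 55, 12 left out 1 pup and could not move. A level counted as kept if it lay within the SD of the 2 pups, and either pup alone always does. A change of prior alters the fold and not the p, so it could not change a call. No member had an opposite-strand count, so the chromosome 6 share with counts of either strand was fixed at 55.8%. The 6 that moved follow from the denominator alone. The family's share was 0.192% without the 10 most abundant genes in the total and 0.0418% of all reads. Over the total without those 10 genes the levels were 1059 CPM for Mir29a, 11.1 for Mir29b-1, 9.97 for Mir29b-2 and 843 for Mir29c. Leaving out either pup gave a family share of 0.0894% to 0.109% and a chromosome 6 share of 53.96% to 57.7%. Over 5 alternatives the adjusted p of Mir29a ranged from 0.00087 to 0.048 (exact binomial test), so its call lay near the threshold with counts of either strand. TMM scaling moved every log2 fold by -0.053 relative to plain totals. Genes called between the pups numbered 177 to 196, against 185. No paired analysis was possible because there is only 1 group, so no 2 groups share replicates; the clusters were set side by side within each pup as values, with no test. Low counts limit the Mir29b genes most, at 13 to 16 in each library. By the inferred counting, full reads of miR-29b-3p are not among them.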
